A study of Mus musculus with 15 samples.

Results

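The genes described here are 48 genes of mitosis, among them the mitotic kinases and their regulators, 11 kinesins of the spindle and 9 genes of the centromere and kinetochore. They were chosen as a named list of mouse gene symbols, found by their Ensembl identifiers among the 46603 genes of each count file, and all 48 passed the filter on low counts that left 15997 genes for testing. The study cultured mouse embryonic fibroblasts (MEFs) and induced them to form adipocytes, and RNA was sequenced from 15 samples, 3 for each of 5 conditions. All cells were wild-type, of the BALB/c strain, from embryos aged 10.5 days, and were kept in DMEM with 10% FBS. The study's introduction, which describes MEFs in general, names another strain and a later embryo age. MEFD0 is the culture at day 0, before any treatment, and MEFD3min and MEFD5min are untreated cells at day 3 and day 5. MEFD3plu cells had been given, from confluency on, medium containing IBMX, a phosphodiesterase inhibitor, at 0.5 mM, insulin at 10 μg/mL, the glucocorticoid dexamethasone at 1 μM and the Pparg agonist rosiglitazone at 10 μM for 3 days. MEFD5plu cells had received it for 3 days and were then returned to growth medium until day 5. MEFs are a mixed primary culture rather than a clone, and the replicates, numbered 1, 3 and 4 in every condition, are not tied by the labels to separate embryos or cultures. The study's methods describe results in general as means of independent experiments, without naming the sequenced samples, so the p-values measure the spread between these samples, which may be technical.

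As background, a cell enters mitosis when the kinase Cdk1, bound to a cyclin, is switched on by Cdc25 phosphatases. Kinesins and microtubule-binding proteins then build the spindle, the kinetochore ties each chromosome to it, and the spindle assembly checkpoint holds back the anaphase-promoting complex until every chromosome is attached. Most of these genes are transcribed in G2 and M phase of dividing cells under the MuvB, Mybl2 and Foxm1 factors and are low in resting cells. In preadipocytes a round of division after the inducers are added, called mitotic clonal expansion, has long been discussed as a step towards adipocytes. The series holds no sample between day 0 and day 3, so division within that time could not be observed here.

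Levels are given as CPM, the usual unit for a gene's counts relative to the total of its library, with the totals scaled by the TMM method of edgeR. The totals were 24030558 to 37281126 counts per sample, and the lowest count of any of the 48 genes in any sample was 114. Changes are given as log2 fold changes ± standard error from edgeR's quasi-likelihood fit of all 15 samples, with p-values adjusted by the Benjamini-Hochberg method over all tested genes, and a gene is called changed below an adjusted p of 0.05. The 8 fibroblast markers summed to between 8252 CPM in a MEFD0 sample and 28085 CPM in a MEFD3min sample, and the 8 adipocyte markers to 42.7 to 65.5 CPM in untreated samples and 9563 to 13257 CPM in treated ones. Marker sums of macrophages (6 genes, 6.02 to 15.1 CPM), endothelial cells (5 genes, 1.00 to 18.7 CPM) and epithelial cells (5 genes, 0.0564 to 1.46 CPM) were low in every condition, with Adgre1, Epcam and Cdh1 at the floor of 3 counts per sample in all of them. The 5 neural markers summed to 314 to 340 CPM in MEFD5min and 161 to 179 CPM in MEFD5plu, and to between those in the other conditions, with Elavl3 at the floor in all of them. They were thus lower in treated samples at day 5, as were many of the 48 genes, and their part in that result was not tested. The labels and the study's methods name different kits, 1 of them stranded, and the strand setting of the counting is not given in the sources used here, so reads of a gene and of an overlapping gene on the other strand cannot be told apart. Because RNA came from whole cultures, fewer cells in mitosis and less RNA of a gene per cell cannot be told apart.

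The promoters of 40 of the 48 genes were found among the RefSeq windows (GRCm38.p6, 250 bases before to 50 bases after each transcript start, 45 windows for these genes), and they were searched on both strands for the letters CCAAT and TTTGAA, since CCAAT boxes and the cell cycle homology region are known features of mitotic promoters. CCAAT or ATTGG stood in 77.8% of the 45 windows against 37.4% of all 32851 windows, TTTGAA or TTCAAA in 68.9% against 17.9%, and both in 57.8% against 6.95%. TTCGAA stood in 11.1% against 1.56%, and GGCGC or GCGCC, a core of E2F sites, in 62.2% against 36.9%. In 25 genes TTTGAA or TTCAAA lay within 50 bases of a transcript start, a distance not counted over all windows. In the 100 bases before the start CCAAT or ATTGG stood in 64.4% against 18.9% of all windows. TTTGAA or TTCAAA stood there in 22.2% against 5.77%. These are matches of letters, and no binding was measured. In the 100 bases before the start 8 windows held both motifs, which was not counted over all windows. The 5 with at most 30 of these bases inside the annotated gene are shown. That overlap was 26 bases for Cdk1 and for Prc1 and 9 for Cdc20. The stretches run 5′ to 3′ on the gene's strand, with the letters of both motifs, on either strand, in capitals. They are the windows chr10:69352913-69353012 (minus strand) of Cdk1, chr4:118437344-118437443 (minus strand) of Cdc20, chr7:80294376-80294475 (plus strand) of Prc1, chr11:99024190-99024289 (minus strand) of Top2a and chr19:37376282-37376381 (plus strand) of Kif11.
Cdk1: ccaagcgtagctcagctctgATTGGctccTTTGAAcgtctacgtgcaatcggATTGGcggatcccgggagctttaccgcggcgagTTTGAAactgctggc
Cdc20: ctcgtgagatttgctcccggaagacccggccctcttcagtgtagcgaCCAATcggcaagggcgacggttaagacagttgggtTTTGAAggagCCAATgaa
Prc1: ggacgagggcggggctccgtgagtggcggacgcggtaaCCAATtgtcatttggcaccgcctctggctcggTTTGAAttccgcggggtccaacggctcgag
Top2a: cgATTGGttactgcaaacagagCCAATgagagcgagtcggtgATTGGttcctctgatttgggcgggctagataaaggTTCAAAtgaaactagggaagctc
Kif11: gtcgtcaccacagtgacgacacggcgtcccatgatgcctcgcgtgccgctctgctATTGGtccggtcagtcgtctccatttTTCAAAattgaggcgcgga
These 5 genes fell to day 3 and rose to day 5, but so did nearly all of the 48, whether or not both motifs were found. Bub3 also held both motifs in the 100 bases before a start, in a window left out by the overlap limit. It fell least of the 48, to 63.2% of day 0 in MEFD3min. The 5 genes differed in how far treated cells stood below untreated cells at day 5. Their log2 fold changes were -0.29 for Cdk1, -0.89 for Cdc20, -0.50 for Prc1, -0.38 for Top2a and -0.38 for Kif11.

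Between day 0 and day 3 all 48 genes fell, with and without the inducers, in 2 comparisons that share the MEFD0 samples. In MEFD3min/MEFD0 48 were lower, against 28.6% of all tested genes, and 47 were lower by at least 2-fold, against 10.3%, while 31.4% of all tested genes were higher and none of the 48 was. In MEFD3plu/MEFD0 48 were lower (29.7% of all genes) and 47 by at least 2-fold (14.2%). The median log2 fold changes were -2.25 and -2.37, against 0.04 and 0.07 over all tested genes. At day 3 the genes stood at a median of 21.0% of their day 0 level in untreated cells, from 15.8% for Mybl2 to 63.2% for Bub3, and at a median of 19.3% in treated cells, from 12.2% for Anln to 69.3% for Bub3. All of these calls held in edgeR's quasi-likelihood fit with each sample left out in turn.

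By day 5 the genes had risen again, most of the way to the starting level in untreated cells and less far in treated cells. In MEFD5min/MEFD3min 48 were higher (21.3% of all genes) and 47 by at least 2-fold (7.9%), with a median log2 fold change of 1.90. In MEFD5plu/MEFD3plu 47 were higher (33.8%) and 39 by at least 2-fold (15.1%), with a median of 1.51, and the exception was Incenp at 0.04 ± 0.14 (adjusted p = 0.806). Against MEFD0, 38 genes were still lower in MEFD5min (21.9%), none by 2-fold, and 45 in MEFD5plu (29.8%), of which 15 by at least 2-fold (10.6%). The split of calls over all genes moved with the scaling here too, from 49.7% higher with TMM to 62.7% with total counts alone in MEFD5min/MEFD3min and from 54.2% to 43.7% in MEFD5plu/MEFD0. The median level at day 5 was 77.6% of day 0 in untreated cells, from 60.1% for Cdc20 to 94.5% for Cdk1, and 57.4% in treated cells, from 24.5% for Mybl2 to 90.3% for Bub3.

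Summed over the 48 genes, the MEFD0 samples held 6681 to 6757 CPM, the MEFD3min samples 1348 to 1668, the MEFD3plu samples 1319 to 1408, the MEFD5min samples 5165 to 5296 and the MEFD5plu samples 3763 to 3862. Only the sums of the day 3 conditions overlapped. The condition means ran in the order MEFD0, MEFD5min, MEFD5plu, MEFD3min, MEFD3plu in 32 genes, with both day 3 conditions exchanged in 15, and Cenpk alone was higher in MEFD5plu than in MEFD5min. Per kilobase of exon, the mean level over the conditions was highest for Top2a (43.9 CPM per kb), Ccnb2 (39.6) and Mki67 (36.7) and lowest for Cenpk and Kif14 (1.83 and 1.86).

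**Figure D1:**
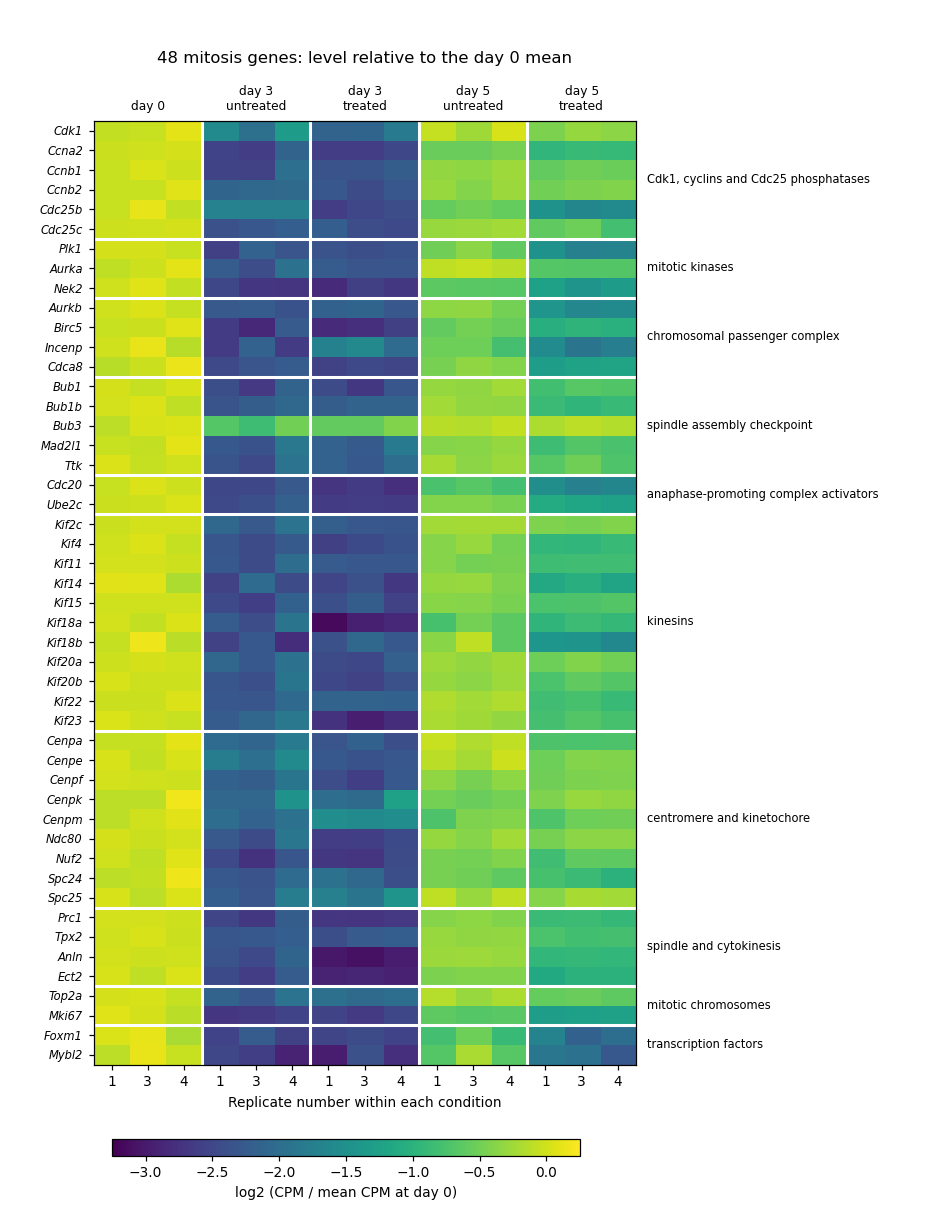
Level of each of the 48 genes (rows, grouped by role) in each of the 15 samples (columns, by condition and replicate number), as log2 of the CPM over the gene's mean CPM at day 0. Both day 3 conditions are dark for every gene but Bub3, and at day 5 the treated samples are on average darker than the untreated ones for every gene but Cenpk. The gap is widest for Mybl2 and Foxm1 and small for Bub3. Among the roles its median is smallest for the kinetochore genes, which vary.

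The treated against untreated comparison at day 3 asks what the inducers changed while they were present. The 48 genes moved little and in both directions: 3 were higher (28% of all genes) and 16 lower (28%), with a median log2 fold change of -0.09 and a range from -0.80 for Kif18a to 0.68 for Incenp. Every treated sample lay below every untreated one in 13 genes (28.2% of all genes) and above in 2, Incenp and Cenpm (28.6%). Neither share exceeds that over all tested genes. The untreated samples were uneven here: MEFD3min replicate 4 was the highest of its condition for 39 of the 48 genes, and the median coefficient of variation was 13.4% in MEFD3min against 3.76% to 6.86% in the other conditions. Without that sample 8 genes were higher and 11 lower. The added genes were Ccnb1, Bub3, Mad2l1, Ttk and Top2a, and those lost were Cdk1, Kif20a, Kif20b, Ndc80 and Prc1. A fit of the 6 day 3 samples alone called 2 higher and 10 lower, and the genes it did not call were Cdk1, Ube2c, Kif20a, Kif20b, Ndc80, Spc25 and Prc1.

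At day 5, 2 days after the inducers were withdrawn, the difference was one-sided. None of the 48 genes was higher in treated cells (26.3% of all genes), 37 were lower (24.2%) and 7 were lower by at least 2-fold (5.88%), with a median log2 fold change of -0.45. Every treated sample lay below every untreated one in 42 genes (29.6% of all genes), and Cenpk alone lay above (32.5%). In a fit of the 6 day 5 samples alone Cdk1, Ccnb1, Kif20a and Nuf2 were called lower as well. DESeq2 called 42 genes lower, with these genes and Ccnb2 added. The genes lower by at least 2-fold were Mybl2, Foxm1, Aurkb, Kif18b, Plk1, Incenp and Cdc25b. The split of all calls depends on the scaling: 52.1% of the called genes were higher in treated cells with TMM and 37% with total counts alone, which moved the median of all genes by -0.16 and that of the 48 genes to -0.61.

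Whether the effect of treatment differed between the days was tested as an interaction, the day 3 log2 fold change minus that at day 5. It was positive, with treated cells relatively lower at day 5, in 24 genes (22.6% of all genes) and negative in Kif18a alone (25.8%), with a median of 0.34. The largest values were those of Incenp (1.81 ± 0.20), Mybl2 (1.51 ± 0.24), Kif18b (1.42 ± 0.21), Aurkb (1.25 ± 0.12), Foxm1 (1.14 ± 0.18) and Plk1 (1.09 ± 0.15). With total counts alone, which moved the median of all genes by 0.18, 59.5% of the genes called over all tested genes were positive, against 46.7% with TMM. Of the 48 genes, 35 were then positive and 0 negative, and with an offset for GC content, described further on, 31 and 0.

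**Figure D2:**
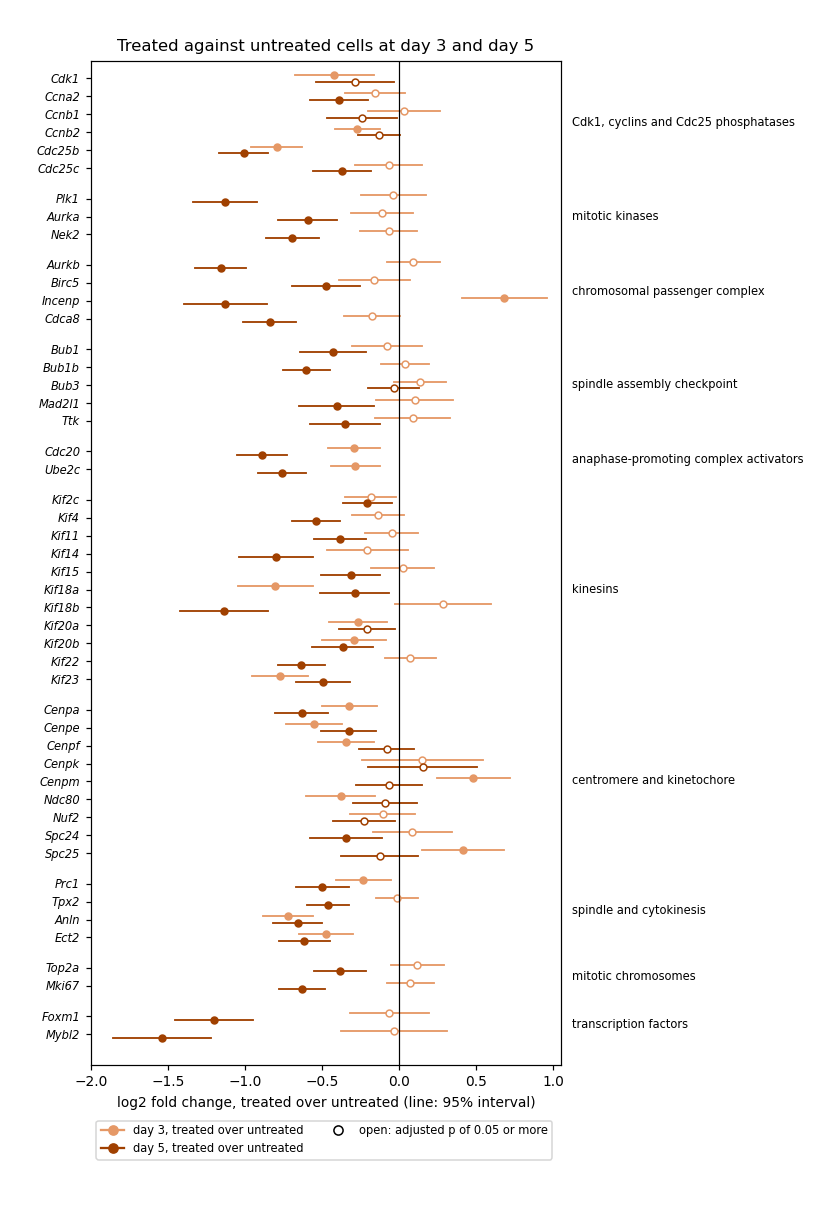
Log2 fold change of treated over untreated cells for each of the 48 genes at day 3 (light) and day 5 (dark), with 95% intervals from the edgeR fit, and with open circles where the adjusted p was 0.05 or more. Day 3 values scatter around zero between -0.80 and 0.68, and day 5 values lie below zero for every gene but Cenpk. The sign of Cenpk turns with total counts alone and with the GC offset, and that of Cenpm turns with the GC offset.

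Cdk1, the kinase that drives entry into mitosis, and its B-type cyclins showed small differences between the arms. Whether these were called at day 5 depended on the setting. Cdk1 (GRCm38 chr10:69335146-69352938) was at 218, 222 and 247 CPM in MEFD0, 76.4, 59.1 and 91.6 in MEFD3min, 52.1, 52.5 and 65.0 in MEFD3plu, 221, 194 and 235 in MEFD5min and 169.6, 186 and 178 in MEFD5plu, for replicates 1, 3 and 4 in that order. All day 3 values lay below all others, and treated samples at day 5 lay just under the untreated ones. Its log2 fold change was -0.42 ± 0.13 at day 3 (adjusted p = 0.0115, but -0.26, adjusted p = 0.077 without MEFD3min replicate 4, and above 0.05 also without MEFD3plu replicate 1 or 3) and -0.29 ± 0.13 at day 5 (adjusted p = 0.0759). DESeq2 called it lower at day 5 (-0.33, adjusted p = 0.0376). So did edgeR with DESeq2's size factors, a replicate block, the compared samples only, no filter, total counts alone or the GC offset.

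Ccnb2, a B-type cyclin and the most abundant gene of this group per kilobase, was at 99.1, 99.1 and 108 CPM in MEFD0, 23.5, 24.4 and 24.8 in MEFD3min, 20.7, 18.9 and 20.6 in MEFD3plu, 83.6, 77.1 and 84.6 in MEFD5min and 72.1, 75.5 and 76.6 in MEFD5plu. Treated cells were lower at day 3 (-0.27 ± 0.07, adjusted p = 0.00519), and at day 5 the difference was -0.13 ± 0.07 (adjusted p = 0.137, but -0.18, adjusted p = 0.022 in DESeq2). The groups did not overlap at either day. Ccnb1, the other B-type cyclin, did not pass edgeR's test at either day (0.03 and -0.24). DESeq2 called it lower at day 5 (-0.29, adjusted p = 0.0466), as did edgeR with the replicate block or the GC offset. Of its 50-base stretches 23.4% also occur in other genes, Ccnb1-ps among them, so reads could be split. Ccna2, the cyclin of S phase and G2, was called lower only at day 5 (-0.39 ± 0.10, adjusted p = 0.00298).

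Of both Cdc25 phosphatases, which activate Cdk1, Cdc25b stood out. Cdc25b (chr2:131186949-131198497) was at 63.4, 71.3 and 62.4 CPM in MEFD0, 20.2, 19.9 and 19.8 in MEFD3min, 10.8, 11.6 and 12.2 in MEFD3plu, 44.2, 46.8 and 44.2 in MEFD5min and 24, 21.1 and 22.0 in MEFD5plu. Treated cells were lower at both days without overlap, with log2 fold changes of -0.79 ± 0.09 at day 3 (adjusted p = 4.43e-07) and -1.01 ± 0.08 at day 5 (adjusted p = 3.19e-08), and the interaction of 0.21 did not pass (adjusted p = 0.144, but 0.40, adjusted p = 0.0126 with total counts alone). In MEFD5plu it reached only 34.1% of day 0. Cdc25c was lower only at day 5 (-0.37 ± 0.10, adjusted p = 0.00425) and reached 64.4%.

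The other mitotic kinases, Plk1, Aurka and Nek2, were not called at day 3 and were lower in treated cells at day 5. Plk1, the polo-like kinase that acts on centrosomes, kinetochores and cytokinesis (chr7:122159439-122169873), was at 89.3, 90.1 and 85.2 CPM in MEFD0, 14.7, 19.9 and 17.6 in MEFD3min, 17.2, 16.6 and 17.1 in MEFD3plu, 62.0, 69.0 and 57.8 in MEFD5min and 32.3, 26.6 and 27.5 in MEFD5plu. The day 3 groups overlapped (-0.04 ± 0.11, 95% interval -0.25 to 0.18), and at day 5 the highest treated sample lay far below the lowest untreated one (-1.13 ± 0.10, adjusted p = 1.64e-07). Overlap with exons of an antisense gene covers 7.09% of Plk1, and 6.56% of its 50-base stretches occur elsewhere.

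Nek2, a kinase of centrosome separation, was at 64.4, 68.3 and 61.3 CPM in MEFD0, 11.5, 9.97 and 9.92 in MEFD3min, 9.11, 10.7 and 10.0 in MEFD3plu, 41.9, 41.4 and 41.0 in MEFD5min and 27.1, 23.8 and 25.9 in MEFD5plu, which is the deepest fall to day 3 among these 3 kinases (-2.63 ± 0.09 in MEFD3min/MEFD0). At day 5 it was lower in treated cells (-0.69 ± 0.09, adjusted p = 4.97e-06). Aurka, the spindle pole Aurora kinase, returned to 94.4% of day 0 in MEFD5min and 62.6% in MEFD5plu (-0.59 ± 0.10, adjusted p = 7.53e-05).

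The chromosomal passenger complex corrects faulty attachments and later prepares cytokinesis. All 4 of its genes were lower in treated cells at day 5 (24.2% of all genes), with a median log2 fold change of -0.98. In the interaction test 3 of the 4 genes of this complex were positive (22.6% of all genes). Its kinase Aurkb (chr11:69045647-69051664) was at 59.7, 62.6 and 57.3 CPM in MEFD0, 12.4, 12.8 and 11.6 in MEFD3min, 13.4, 13.8 and 12.2 in MEFD3plu, 47.1, 47.8 and 43.1 in MEFD5min and 22.3, 19.3 and 20.2 in MEFD5plu. At day 3 the groups overlapped (0.09 ± 0.09), and at day 5 treated cells lay far below untreated ones (-1.16 ± 0.08, adjusted p = 8.28e-09).

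Incenp, the scaffold of this complex (chr19:9872296-9899551), was the only gene of the 48 called in opposite directions at day 3 and day 5. It was at 115, 126 and 105 CPM in MEFD0, 18.5, 25.9 and 18.7 in MEFD3min, 35.1, 37.9 and 28.4 in MEFD3plu, 80.5, 80.3 and 67.3 in MEFD5min and 39.0, 31.0 and 34.3 in MEFD5plu. The groups did not overlap at either day, but their order turned: treated cells were higher at day 3 (0.68 ± 0.14, adjusted p = 0.000491) and lower at day 5 (-1.13 ± 0.14, adjusted p = 3.7e-06). The mean of treated cells was 33.8 ± 4.84 CPM at day 3 and 34.8 ± 4.05 at day 5 (SD, n = 3), and that of untreated cells 21.0 ± 4.22 and 76.0 ± 7.59. Birc5, known as survivin, was at 130.1, 131 and 142 CPM in MEFD0, 21.6, 18.4 and 28.2 in MEFD3min, 18.9, 19.7 and 22.4 in MEFD3plu, 89.5, 96.2 and 91.2 in MEFD5min and 64.8, 68.3 and 66.2 in MEFD5plu. Its day 3 groups overlapped and its day 5 groups did not (-0.47 ± 0.11, adjusted p = 0.00206). Cdca8, known as borealin, was lower at day 5 (-0.84 ± 0.09, adjusted p = 5.6e-07).

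**Figure D3:**
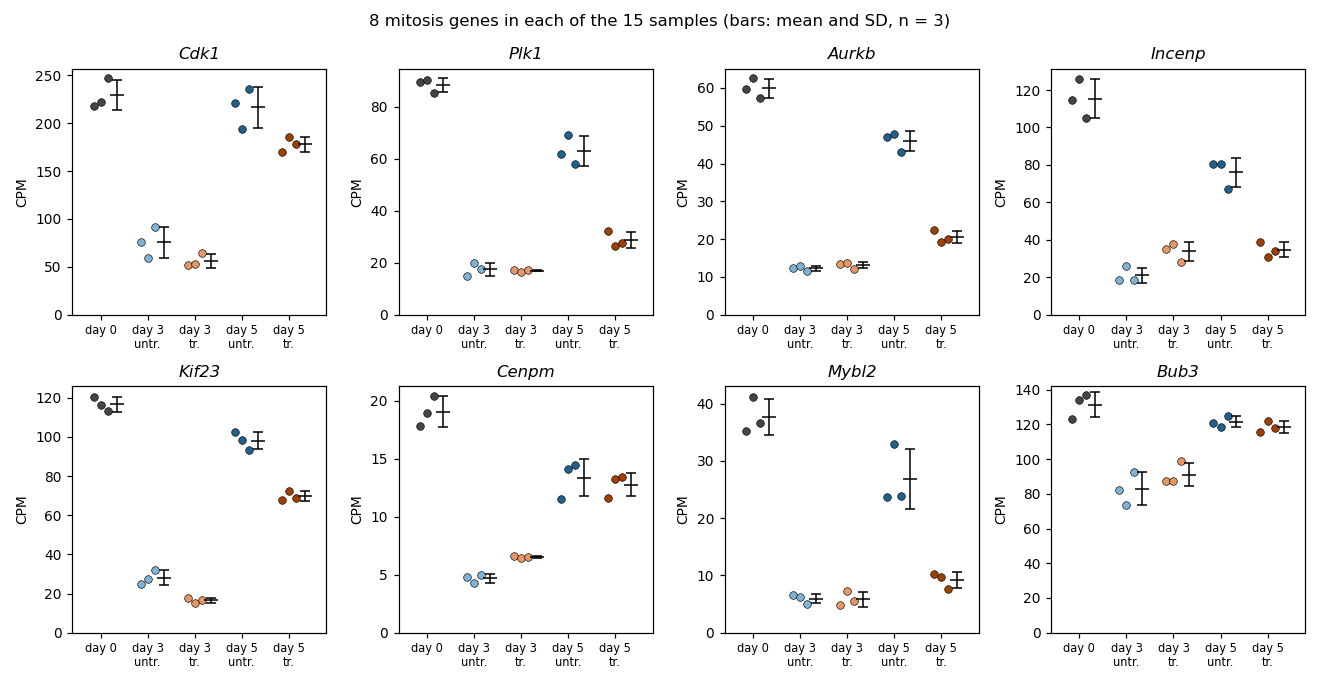
CPM of 8 of the genes in each of the 15 samples, with the mean and SD of the 3 replicates beside the points. Plk1, Aurkb and Mybl2 show no gap between the day 3 groups and a wide one at day 5, Incenp turns its order, Kif23 and Cenpm separate at day 3 in opposite directions, and Bub3 falls least to day 3.

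None of the 5 genes of the spindle assembly checkpoint passed the test at day 3, where 28% of all genes were higher and 28% lower. At day 5, 4 of the 5 were lower in treated cells (24.2% of all genes). Bub1b (BubR1), the most abundant of the 5 per kilobase, was at 127, 131 and 119 CPM in MEFD0, 24.8, 27.0 and 30.1 in MEFD3min, 26.9, 28.5 and 28.6 in MEFD3plu, 106, 100.5 and 99.5 in MEFD5min and 69.0, 64.4 and 68.4 in MEFD5plu. The day 3 groups overlapped (0.04 ± 0.08), and at day 5 treated samples were all lower (-0.60 ± 0.08, adjusted p = 6.71e-06). Bub1, Mad2l1 and Ttk had log2 fold changes of -0.43, -0.41 and -0.35 at day 5 (adjusted p = 0.0037, 0.0118 and 0.0185). The Ttk call was lost without MEFD5min replicate 1 (-0.31, adjusted p = 0.0662), MEFD5plu replicate 1 (-0.33, adjusted p = 0.0544) or MEFD5plu replicate 4 (-0.31, adjusted p = 0.0754).

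Bub3, which brings Bub1 and Bub1b to the kinetochore, fell least of the 48 from day 0 to day 3. It was at 123, 134 and 137 CPM in MEFD0, 82.4, 73.7 and 92.8 in MEFD3min, 87.2, 87.1 and 98.7 in MEFD3plu, 121, 119 and 125 in MEFD5min and 116, 122 and 118 in MEFD5plu. It fell to day 3 (-0.66 ± 0.09 in MEFD3min/MEFD0), did not pass between the arms at day 3 (0.13 ± 0.09) or day 5 (-0.04 ± 0.09, 95% interval -0.20 to 0.13), and stood at 92.5% and 90.3% of day 0 in MEFD5min and MEFD5plu. Both arms overlapped at each day.

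Cdc20 and Ube2c, the activator and the ubiquitin-conjugating enzyme of the anaphase-promoting complex, were lower in treated cells at both days. Cdc20 was at 112, 121 and 115 CPM in MEFD0, 20.7, 20.8 and 24.1 in MEFD3min, 17.7, 18.9 and 16.9 in MEFD3plu, 69.2, 73.6 and 67.2 in MEFD5min and 40.6, 35.3 and 37.4 in MEFD5plu. Its groups did not overlap at day 3 (-0.29 ± 0.09, adjusted p = 0.00808) or day 5 (-0.89 ± 0.08, adjusted p = 1.65e-07), and even untreated cells reached only 60.1% of day 0. Ube2c was at -0.28 ± 0.08 on the log2 scale at day 3 (adjusted p = 0.00731) and at -0.76 ± 0.08 at day 5 (adjusted p = 5.86e-07). The interaction passed for both (0.60 and 0.48). Other genes share 10.4% of the 50-base stretches of Cdc20, and exons of Tnnc2 on the other strand overlap 22.8% of Ube2c.

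Among the 11 kinesins, 4 were lower in treated cells at day 3 (28% of all genes) and 10 at day 5 (24.2%). Kif20a, a motor of the central spindle and the most abundant of them per kilobase, was at 146, 149 and 147 CPM in MEFD0, 34.4, 30.1 and 38.6 in MEFD3min, 26.9, 26.3 and 32.5 in MEFD3plu, 123, 119 and 124 in MEFD5min and 102, 110.3 and 104 in MEFD5plu. It was the one kinesin not called at day 5 in edgeR's fit of all samples (-0.21 ± 0.09, adjusted p = 0.0703). DESeq2 called it lower (-0.25, adjusted p = 0.0206), as did edgeR with the replicate block, the compared samples only or the GC offset. Its day 3 call (-0.27 ± 0.10, adjusted p = 0.025) was lost without MEFD3min replicate 4 (-0.17, adjusted p = 0.131), as it was without MEFD3min replicate 1 or MEFD3plu replicate 1 or 3. Exons of Cdc23 on the other strand overlap 29.3% of it.

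Kif18a and Kif18b, related motors that act on the plus ends of microtubules, took different courses. Kif18a, which aligns chromosomes (chr2:109280738-109341747), was at 63.0, 59.4 and 65.2 CPM in MEFD0, 13.4, 11.7 and 16.6 in MEFD3min, 6.99, 8.12 and 8.71 in MEFD3plu, 36.8, 44.6 and 40.6 in MEFD5min and 32.1, 34.6 and 33.0 in MEFD5plu. The day 3 groups were far apart (-0.80 ± 0.12, adjusted p = 2.99e-05) and those of day 5 nearly met (-0.29 ± 0.11, adjusted p = 0.042, but -0.22, adjusted p = 0.164 without MEFD5min replicate 3, and not called in 6 other fits with 1 sample left out). Its interaction of -0.51 ± 0.17 (adjusted p = 0.0178) was -0.36, adjusted p = 0.0506 without MEFD3min replicate 4 and -0.33, adjusted p = 0.0938 with total counts alone. With the GC offset described further on it was -0.20 (adjusted p = 0.253), and the day 5 difference was -0.53 (adjusted p = 0.000193). Kif18b (chr11:102905529-102925124) overlapped at day 3 (0.29 ± 0.16, adjusted p = 0.139, and 0.30, adjusted p = 0.0343 with the replicate number as a block) and was lower at day 5 (-1.14 ± 0.14, adjusted p = 6.07e-06).

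Kif23, the motor of the centralspindlin complex (chr9:61915905-61946774), was at 121, 116 and 113 CPM in MEFD0, 24.8, 27.3 and 32.2 in MEFD3min, 17.6, 15 and 16.8 in MEFD3plu, 102, 98.6 and 93.4 in MEFD5min and 67.8, 72.5 and 68.8 in MEFD5plu. Treated samples were the lower ones at both days, with -0.77 ± 0.09 at day 3 (adjusted p = 2e-06) and -0.49 ± 0.09 at day 5 (adjusted p = 0.000203). Kif20b, another motor of cytokinesis, was lower at day 5 (-0.37, adjusted p = 0.00652). At day 3 it was also called lower (-0.29, adjusted p = 0.0262), but not without MEFD3min replicate 4 (-0.12, adjusted p = 0.213) or MEFD3plu replicate 1 or 3.

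The remaining kinesins were called at day 5 only. Their log2 fold changes were -0.80 for Kif14, a motor of cytokinesis, -0.63 and -0.54 for the chromosome-bound motors Kif22 and Kif4, -0.38 and -0.31 for the spindle motors Kif11 and Kif15, and -0.21 for the microtubule depolymerase Kif2c (adjusted p = 0.043, lost in 11 of the 15 fits with 1 sample left out). At day 3 these 6 lay between -0.21 and 0.07. Exons of Pdzd11 on the other strand overlap 15.1% of Kif4.

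The 9 centromere and kinetochore genes had the smallest median difference between the arms of the 10 roles at day 5 (log2 fold change -0.13, 3 lower), and at day 3 they split, with 4 lower and 2 higher. Over all genes 24.2% were lower at day 5, and 28% were lower and 28% higher at day 3, so 3 and 2 of 9 are near those shares. Cenpe, the kinesin-like motor of the kinetochore, was at 219, 204 and 219 CPM in MEFD0, 63.1, 54.4 and 71.8 in MEFD3min, 43.9, 41.5 and 43.4 in MEFD3plu, 198, 183 and 211 in MEFD5min and 149, 163 and 160.2 in MEFD5plu. It was lower without overlap at day 3 (-0.56 ± 0.09, adjusted p = 6.77e-05) and at day 5 (-0.33 ± 0.09, adjusted p = 0.00616). Cenpa, the centromeric histone H3, did likewise (-0.32 and -0.63).

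Cenpm, a subunit of the inner kinetochore network (chr15:82233779-82244748), was at 17.8, 19.0 and 20.4 CPM in MEFD0, 4.76, 4.30 and 4.98 in MEFD3min, 6.58, 6.42 and 6.57 in MEFD3plu, 11.5, 14.1 and 14.5 in MEFD5min and 11.6, 13.3 and 13.4 in MEFD5plu. Treated cells were higher at day 3 without overlap (0.48 ± 0.12, adjusted p = 0.00252), and at day 5 the groups overlapped (-0.07 ± 0.11, 95% interval -0.28 to 0.15, and 0.07 with the GC offset). Spc25 of the Ndc80 complex was at 61.6, 56.4 and 62.4 CPM in MEFD0, 13.0, 11.9 and 17.5 in MEFD3min, 18.2, 16.1 and 22.2 in MEFD3plu, 56.7, 49.4 and 56.9 in MEFD5min and 46.1, 52.2 and 51.1 in MEFD5plu. It too was higher at day 3 (0.42 ± 0.14, adjusted p = 0.0151), though the groups overlapped and the call was lost without MEFD3min replicate 1 (0.36, adjusted p = 0.0644), MEFD3min replicate 3 (0.31, adjusted p = 0.0676) or MEFD3plu replicate 4 (0.28, adjusted p = 0.101).

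The other subunits of the Ndc80 complex, the 4-part link between kinetochore and microtubule, did not follow Spc25. Ndc80 was lower at day 3 (-0.38 ± 0.11, adjusted p = 0.0096, but -0.20, adjusted p = 0.0709 without MEFD3min replicate 4) and not called at day 5 (-0.09). Nuf2 was not called by edgeR at either day (-0.11 and -0.23), but DESeq2 called it lower at day 5 (-0.27, adjusted p = 0.0273). Spc24 was lower at day 5 alone (-0.35 ± 0.12, adjusted p = 0.0234), and that call was lost without MEFD5min replicate 1 or 3 or MEFD5plu replicate 3 or 4 (adjusted p from 0.054 to 0.103). Cenpf, a large protein of the outer kinetochore, was lower at day 3 (-0.34, adjusted p = 0.0047) and at -0.08 at day 5 (adjusted p = 0.493).

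Cenpk, another inner kinetochore subunit and the least abundant of the 48 per kilobase, was at 14.6, 14.6 and 17.5 CPM in MEFD0, 3.63, 3.65 and 5.65 in MEFD3min, 3.89, 3.79 and 6.54 in MEFD3plu, 11.2, 10.7 and 11.1 in MEFD5min and 11.6, 12.7 and 12.4 in MEFD5plu. Its treated samples at day 5 lay just above the untreated ones, the only such case, but the difference did not pass (0.15 ± 0.18, adjusted p = 0.514) and turned to -0.01 with total counts alone and -0.10 with the GC offset.

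The 4 genes of the spindle midzone and cytokinesis were all lower in treated cells at day 5 (24.2% of all genes), and 3 at day 3 (28%). Anln, the actin-binding anillin of the cleavage furrow (chr9:22332012-22389188), was at 426, 419.5 and 424 CPM in MEFD0, 82.3, 75.6 and 97.4 in MEFD3min, 51.8, 49.5 and 53.6 in MEFD3plu, 349.9, 351 and 347 in MEFD5min and 221, 223 and 221 in MEFD5plu. The groups were well apart at both days, with log2 fold changes of -0.72 ± 0.08 (adjusted p = 1.04e-06) and -0.66 ± 0.08 (adjusted p = 4.4e-06). Ect2, the exchange factor that activates RhoA at the midzone, was lower at day 3 and day 5 (-0.48 and -0.62, adjusted p = 0.000211 and 1.36e-05). The microtubule bundler Prc1 was lower at day 5 (-0.50, adjusted p = 0.000177). Its day 3 call (-0.23, adjusted p = 0.0396) was lost in 10 of the 15 fits with 1 sample left out, and without MEFD3min replicate 4 its value was -0.10, adjusted p = 0.292. Tpx2, the spindle activator of Aurka, differed only at day 5 (-0.01 at day 3 and -0.46 ± 0.07 at day 5, adjusted p = 3.03e-05).

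Both genes of the mitotic chromosome were not called at day 3 and were lower in treated cells at day 5. Top2a, the topoisomerase that untangles sister chromatids, was at 666, 669 and 628 CPM in MEFD0, 149, 133 and 173 in MEFD3min, 168, 159.7 and 166 in MEFD3plu, 595, 536 and 579.5 in MEFD5min and 436, 447 and 428 in MEFD5plu (-0.38 ± 0.09 at day 5, adjusted p = 0.00149). Mki67, the coat protein of mitotic chromosomes used as a marker of proliferation, was at 821, 785 and 719 CPM in MEFD0, 119, 123 and 133 in MEFD3min, 134, 123 and 138 in MEFD3plu, 504, 487 and 494 in MEFD5min and 316, 319.5 and 326 in MEFD5plu. Its treated samples at day 5 lay well below the untreated ones (-0.63 ± 0.08, adjusted p = 3.73e-06), and even these had reached only 63.8% of day 0.

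The transcription factors Foxm1 and Mybl2, which drive many of the genes above, had the largest day 5 differences. Mybl2 (chr2:163054687-163084688) was at 35.2, 41.2 and 36.7 CPM in MEFD0, 6.64, 6.2 and 5.04 in MEFD3min, 4.77, 7.24 and 5.5 in MEFD3plu, 23.7, 32.9 and 23.9 in MEFD5min and 10.2, 9.76 and 7.69 in MEFD5plu. The day 3 groups overlapped (-0.03 ± 0.18), and the day 5 groups did not (-1.54 ± 0.16, adjusted p = 7.52e-07). Other genes, Gm3320 among them, share 19.3% of its 50-base stretches. Foxm1 (chr6:128362967-128376146) was at 152, 160.1 and 129 CPM in MEFD0, 25.3, 31.3 and 24.8 in MEFD3min, 25.6, 27.1 and 25.1 in MEFD3plu, 84.5, 103 and 79.4 in MEFD5min and 45.6, 33.0 and 37.3 in MEFD5plu. It followed the same course, with -0.06 ± 0.13 at day 3 and -1.20 ± 0.13 at day 5 (adjusted p = 9.06e-07).

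The genes with the largest day 5 differences were also rich in G and C. GC content was taken over the exons of each gene's longest annotated transcript. Across the 48 genes, whose values come from the same libraries, it ran from 37.1% for Cenpk to 56.3% for Mybl2 (median 47.5%). Its Spearman correlation with the day 5 log2 fold change was -0.55, against -0.18 over 15929 tested genes. It was 0.57 for the interaction (0.15 over the tested genes), -0.60 in MEFD5plu/MEFD3plu (-0.22) and -0.50 in MEFD5plu/MEFD0 (-0.14). In MEFD5min/MEFD3min it was -0.05 (-0.08). All 7 genes lower by at least 2-fold held between 52.5% and 56.3%, while Cenpm, at 55.9%, was at -0.07. An offset that evens out GC content in each sample was chosen after the data were seen. With it the correlation was -0.36 for day 5 and 0.26 for the interaction, and 42 genes were lower at day 5. The day 5 values were then -1.40 for Mybl2, -1.10 for Foxm1, -1.09 for Aurkb, -1.02 for Incenp, -0.998 for Plk1 and -0.92 for Cdc25b. With that offset Ndc80, Cenpf, Spc25 and Nuf2 were lower as well (-0.26, -0.23, -0.29 and -0.41), while Spc24 was not called (-0.28, adjusted p = 0.0676), which makes 6 of the 9 kinetochore genes lower in place of 3. Kif2c was not called either (-0.19, adjusted p = 0.0672). The part of GC content in these differences was not tested further.

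**Figure D4:**
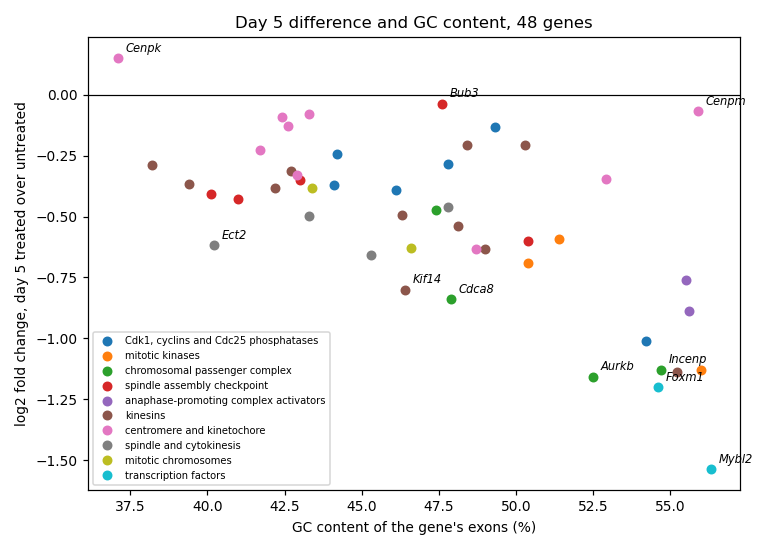
Log2 fold change of treated over untreated cells at day 5 against the GC content of the exons in the gene's longest transcript, for the 48 genes coloured by role. Points fall from upper left to lower right (Spearman correlation -0.55), with Cenpk at one end and Mybl2 at the other and Cenpm apart from its neighbours in GC content.

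Other genes of the same machinery took the same course to day 3. Of 32 further kinetochore genes, 31 were lower in MEFD3min/MEFD0 (28.6% of all genes, median log2 fold change -1.83), of 31 further spindle and cytokinesis genes 30 (-2.27), and of 16 condensin and cohesin regulators 14 (-1.30). The 22 tested kinesins of transport and cilia did not follow, with 12 higher and 7 lower (0.54). Higher were 31.4% of all genes. The 17 subunits and regulators of the anaphase-promoting complex were 2 higher and 7 lower (-0.12), the 11 MuvB and DREAM subunits 0 higher and 7 lower (-0.47) and the 23 genes of the G1/S transition 0 higher and 23 lower (-2.11). Of 16 p53 targets 2 were higher and 8 lower (-0.33).

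Treated against untreated, the further spindle and cytokinesis genes split 2 higher to 7 lower at day 3 (28% and 28% of all genes) and 0 to 25 at day 5 (26.3% and 24.2%, median -0.64), and the further kinetochore genes 5 to 7 and 1 to 15 (-0.28). The condensin and cohesin regulators were 5 higher and 2 lower at day 3 and 2 and 8 at day 5 (-0.25), and the G1/S genes 4 and 4 at day 3 and 0 and 18 at day 5 (-0.79). The transport kinesins split 4 to 10 and 4 to 6 (-0.08), the anaphase-promoting complex 2 to 6 and 5 to 7 (-0.14), the MuvB and DREAM subunits 4 to 0 and 1 to 5 (-0.15) and the p53 targets 6 to 4 and 3 to 6 (-0.11). Among single genes, the citron kinase Cit of cytokinesis was at -1.39 ± 0.17 at day 5 (adjusted p = 4.56e-06) and separase, Espl1, at -1.29 ± 0.16 (adjusted p = 4.16e-06). The Cdk inhibitor Cdkn1a, a p53 target, was higher in treated cells at day 3 (1.53 ± 0.10, adjusted p = 6.49e-10) and lower at day 5 (-0.69 ± 0.10, adjusted p = 1.79e-05).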

How the data were processed

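RNA of 15 samples was sequenced, and the authors deposited 1 table of raw read counts per gene for each sample. Per the submitters' processing notes the tools were TopHat2 2.1.0, HTSeq and DESeq2, with the GRCm38 (mm10) assembly. The labels name an unstranded kit and the study's methods a stranded one, and the strand setting of the counting is not given in the sources used here. No column of a sample outside this set was found (0 columns). Samples were grouped by title and replicate number.

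From the deposited counts, genes passing filterByExpr (15997) were fitted with the quasi-likelihood test of edgeR 4.0.16 (R 4.3.3, limma 3.58.1), with TMM scaling, 1 fit of 15 samples and no covariates. The Benjamini-Hochberg adjustment ran over all tested genes, with a threshold of 0.05 on the adjusted p, and intervals are 95% intervals of the fit. Alternatives were DESeq2 1.42.0, its size factors, total counts alone, no filter, at least 10 counts in every sample, the compared samples only, a replicate block, each sample left out in turn and, chosen after seeing the data, a GC offset (lowess span 0.3) without and with the block. Counts were also simulated (15556 genes) with 2-fold changes planted in MEFD3plu and, unlike in these data, no other difference between conditions. In MEFD3plu/MEFD3min edgeR recovered 113 of 115 changed genes at 5 CPM or more (98.3%) and 130 of 191 at all levels, with 5 false calls. For the interaction it recovered 103 of 115 (89.6%) and 107 of 191, with 9 false calls. Changes below 2-fold, such as all those of the 48 genes in MEFD3plu/MEFD3min, were not simulated.

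Replicates differed by more than sampling noise (chi-square per degree of freedom from 5.92 to 119.2), so none was counted as a repeat. Same-numbered samples deviated together most between MEFD3min and MEFD3plu (correlations of 0.143, 0.228 and 0.360), the only conditions with all 3 above 0.1. By that limit the numbers were taken to pair the samples of that comparison alone. Unless the block is named, day 3 values come from the fit without it. With the block 4 of the 48 genes were higher and 16 lower at day 3. Correlations were smaller but also positive between MEFD0 and MEFD3plu (0.124, 0.0706 and 0.110) and between MEFD0 and MEFD3min (0.0837, 0.132 and 0.180). Between MEFD0 and MEFD3plu each MEFD0 sample correlated best with the MEFD3plu sample of its own number. A weaker tie in those was not tested. The members and lists were chosen with earlier results of these data known. All 48 genes are described, grouped by role. Values of every sample are given for the most abundant gene per kilobase of each role, the 3 largest and 3 smallest changes of MEFD3plu/MEFD3min, MEFD5plu/MEFD5min and MEFD3min/MEFD0, and genes called against the majority. Of other lists the examples are extremes. Promoter windows came from RefSeq (GRCm38.p6), and exon lengths, overlaps and the GC content of each gene's longest transcript from the GRCm38 annotation. Shared stretches are 50-base words of a gene's transcripts that occur in another gene.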

Additional observations from a re-analysis of the deposited data

Results flagged for a closer look

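In 25 of the 48 genes the effect of treatment differed between day 3 and day 5 by the interaction test (log2 fold change at day 3 minus that at day 5, edgeR, adjusted p below 0.05). It was positive in 24 of them (22.6% of all tested genes) and negative in 1 (25.8%). Over all tested genes 7754 of 15997 passed in either direction, so the total of 25 is near the background. Among the kinases and the passenger complex the values were 1.09 for Plk1, 0.48 for Aurka, 0.62 for Nek2, 1.25 for Aurkb, 1.81 for Incenp and 0.67 for Cdca8. In the checkpoint and the anaphase-promoting complex they were 0.64 for Bub1b, 0.51 for Mad2l1, 0.44 for Ttk, 0.60 for Cdc20 and 0.48 for Ube2c. The kinesins were at 0.40 for Kif4, 0.33 for Kif11, 0.59 for Kif14, 1.42 for Kif18b and 0.71 for Kif22, with -0.51 for Kif18a as the negative one. The kinetochore genes were at 0.31 for Cenpa, 0.55 for Cenpm and 0.54 for Spc25. The remaining values were 0.45 for Tpx2, 0.50 for Top2a, 0.70 for Mki67, 1.14 for Foxm1 and 1.51 for Mybl2. Of the 25 calls 19 held with each sample left out in turn, and those of Mad2l1, Ttk, Kif11, Kif18a, Cenpa and Spc25 did not. In other settings Cenpm was not called with the GC offset (0.39, adjusted p = 0.0912), nor were Kif4, Kif11 and Cenpa without the filter on low counts (adjusted p = 0.0625, 0.0973 and 0.158), nor Kif18a with total counts alone (-0.33) or the GC offset (-0.20).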

How the results depend on the processing

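The fall of the 48 genes to day 3 and the rise in MEFD5min/MEFD3min and MEFD5plu/MEFD3plu kept their counts of 48, 48, 48 and 47 in every alternative run. A tally was kept for 13 summary values, the 9 counts of called genes and 4 of the medians, and for 43 named values of single genes. In fits that left out no single sample, 111 of the summary values stayed within set limits. These were a factor of 1.5 for a count and 1 SD of the sample medians (0.0933, log2) for a median. Beyond them, 5 medians moved and 1 count fell. The limits do not ask which genes were called or in which direction. The interaction, with 25 calls, was still counted as kept at 35 with total counts alone. Of the named values 372 kept direction and call, 1 gained and 9 lost it, and 5 turned. Over all 48 genes and 9 comparisons calls were gained and lost more often, with 14 and 0 in DESeq2, 10 and 0 with its size factors, 26 and 1 with total counts alone, 5 and 7 without the filter, 0 and 2 with the strict filter, 8 and 7 with the compared samples only, 10 and 0 with the block, and 23 and 4 with the GC offset (27 and 4 with the block). The fit of the compared samples only lowered the count at day 3 from 19 to 12. Total counts alone moved the median log2 fold change to -0.61 at day 5, 0.53 for the interaction and -2.37 in MEFD3min/MEFD0, and turned Cenpk at day 5 to -0.011. Outside the tally it moved the medians of MEFD3plu/MEFD0, MEFD5min/MEFD3min and MEFD5plu/MEFD0 to -2.48, 2.01 and -0.98, the last at -0.96 with the GC offset. The GC offset moved the day 5 median to -0.56 without and -0.56 with the replicate block, and turned Cenpm to 0.067 and 0.069 and Cenpk to -0.097 and -0.098, in the same order. The cause of these changes was not tested.

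With 1 sample left out, the counts ran from 15 to 22 at day 3, 33 to 41 at day 5, 20 to 31 for the interaction, 28 to 42 in MEFD5min/MEFD0 and 44 to 47 in MEFD5plu/MEFD0. The medians ran from -0.15 to -0.02, -0.47 to -0.43 and 0.27 to 0.49 for day 3, day 5 and the interaction, and from -2.35 to -2.21 in MEFD3min/MEFD0. Calls that held in all 15 such fits numbered 13 of 19 at day 3, 33 of 37 at day 5 and 26 of 38 in MEFD5min/MEFD0.

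A block on the replicate number gave 20 calls at day 3, where the numbers pair the samples, and Kif18b was the added one (0.30, adjusted p = 0.0343). In the other comparisons, where the numbers were not taken to pair the samples, the block gave 41 calls at day 5, 26 for the interaction, 40 in MEFD5min/MEFD0 and 47 in MEFD5plu/MEFD0. The range of 3 samples a condition limits small differences, and an exact permutation test of a single gene could not go below p = 0.1.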

Other observations

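The genes outside the 48 whose log2 CPM followed the mean profile of the 48 most closely over the 15 samples were Parpbp, a regulator of homologous recombination (Pearson r = 0.998), Kntc1 of the kinetochore-bound RZZ complex (0.998), Plk4, the kinase of centriole duplication (0.997), Fignl1, an ATPase of recombination repair (0.997), and Cip2a, an inhibitor of the phosphatase PP2A (0.997). These correlations share libraries and depth and rest on 5 conditions, so they are given as a description without a test.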
